A study of Homo sapiens with 4 samples.

Results

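The genes described here are those of the human histone clusters, taken as every non-control gene of the array whose name in the array annotation starts with HIST1H, HIST2H, HIST3H or HIST4H. The rule found 68 genes, read by 80 probes, of 34805 genes in all. Each gene was read from 1 representative probe, the one with the highest mean log2 signal over the arrays. They fell into 6 genes of class H1, 15 of H2A, 19 of H2B, 13 of H3 and 15 of H4. Expression was measured in Hep3B, a human hepatocellular carcinoma cell line, that had been transfected with a plasmid expressing a short hairpin RNA. The mock cells carried shR-MOCK (1 array), and the knockdown cells carried shR-467, shR-554 or shR-749, 3 hairpins against UNC50 (1 array each). UNC50 encodes a Golgi membrane protein, and the study asked what its knockdown does to gene expression in these cells. All 4 cultures were selected with puromycin at 1 µg/ml, and each array was hybridised with RNA from a selected culture of transfected cells, so the 3 hairpins stood in for replicates of knockdown and the mock had none.

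Nucleosomes are built from the core histones H2A, H2B, H3 and H4, and H1 is the linker histone that binds DNA between them. Most genes of the clusters are replication-dependent: they are switched on together as cells enter S phase, they have no introns, and their mRNAs end in a conserved stem-loop, bound by the protein SLBP, in place of a poly(A) tail. Variant histones such as H3.3, H2A.Z or H1.0 lie outside the clusters and are made throughout the cell cycle from polyadenylated mRNAs. The labels name an amplification kit for the labelled RNA, and kits of this kind prime on poly(A) tails, so the signal of a cluster gene may follow the tailed part of its transcripts, a point that was not tested.

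The stem-loop lies inside 6 of the 80 member probes, 4 of them representative probes, and these stretches are shown because they are the shared end of the replication-dependent messages. Each is part of a 60-base probe as listed in the deposited files, 5′ to 3′ in the sense of the transcript, with the 16 bases of the stem-loop in capitals.
HIST1H2AI: accaaaGGCTCTTTTCAGAGCCacct
HIST1H2BE: cccaaaGGCTCTTTTCAGAGCCactc
HIST1H2BF: cccaaaGGCTCTTTTAAGAGCCa
HIST1H3H (second probe): cccaaaGGCTCTTTTCAGAGCCaccc
HIST2H3A: ccaaaaGGCTCTTTTCAGAGCCacc
HIST1H4K (second probe): acaaaaGGCCCTTTTTAGGGCCcc
On hg19, the build of the array annotation, these probes lie at chr6:27776386-27776445, chr6:26184399-26184458, chr6:26200153-26200212, chr6:27778255-27778314, chr1:149812261-149812320 and chr6:27798954-27799013, in the order printed.

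The promoters of the members carried short motifs that differed by class. RefSeq (GRCh38.p14) gave a promoter of 300 bases for 62 of the 68 members, and it was searched on both strands for TATAAA (the TATA box), CCAAT (the box bound by the factor NF-Y) and ATTTGCAT (the octamer bound by POU2F1). No motif of the 3 contains another. CCAAT was present in all 6 H1, all 14 H2A, all 18 H2B and all 11 H3 promoters but in 3 of 13 H4 promoters, against 34.6% of all 35116 promoters. The octamer was present in 14 of 18 H2B promoters and in 10 of 14 H2A promoters, in 1 of 11 H3 promoters and in no H1 or H4 promoter, against 1.77% of all promoters. On the strand of the gene alone it was in 72.2% of H2B, 7.14% of H2A and 0% of H3 promoters. The windows of 10 H2A genes overlapped those of 10 H2B genes on the opposite strand, so that 1 octamer can count for both classes, and the windows of HIST1H2AD and HIST1H3D were the same. TATAAA was found in 40 of the 62, against 11.5% of all. The promoters of 4 members follow, from 160 bases upstream to the last base before the annotated start, with the motifs in capitals. They belong to the H1 and H4 members with the lowest values under shR-749, to the neighbour of a gene described below for its downstream probe, and to the H3 gene that stood apart with shR-554.
HIST1H1B (H1-5), chr6:27867589-27867748, minus strand: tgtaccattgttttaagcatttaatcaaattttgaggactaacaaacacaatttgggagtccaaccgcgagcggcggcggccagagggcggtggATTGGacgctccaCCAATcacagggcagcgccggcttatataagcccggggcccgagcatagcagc
HIST1H4E (H4C5), chr6:26204450-26204609, plus strand: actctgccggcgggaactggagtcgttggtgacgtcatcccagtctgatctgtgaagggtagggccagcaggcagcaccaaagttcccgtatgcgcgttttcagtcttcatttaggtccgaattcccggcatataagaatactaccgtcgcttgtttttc
HIST1H2BC (H2BC4), chr6:26123927-26124086, minus strand: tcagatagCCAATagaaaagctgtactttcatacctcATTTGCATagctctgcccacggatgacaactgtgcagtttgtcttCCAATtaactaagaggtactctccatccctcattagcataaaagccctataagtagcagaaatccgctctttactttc
HIST1H3A (H3C1), chr6:26020291-26020450, plus strand: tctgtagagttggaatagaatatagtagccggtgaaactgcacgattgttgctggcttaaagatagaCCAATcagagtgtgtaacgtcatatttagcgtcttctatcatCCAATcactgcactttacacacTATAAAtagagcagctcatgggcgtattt
The H4 stretch holds none of the 3 motifs, and the H2B stretch holds the octamer between its CCAAT boxes.

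The share of spots well above background was 67.6% to 73.6% by array, no spot was saturated, and none of the 101 member spots was marked as an outlier on any array. UNC50, the targeted gene, was below the mock on every hairpin array, at 24.0% (shR-467), 13.7% (shR-554) and 18.7% (shR-749) of its level there. All 12 hepatoma markers (ALB, AFP and other liver genes) were detected on all 4 arrays. Of 10 genes listed as markers of other cells, COL1A1 and ACTA2 were below background on all 4 arrays. PTPRC, CD3E, CD68, PECAM1, VWF, DES and EPCAM were well above background on all 4, and COL1A2 on 3. Several were dim on the mock array, with 35.7 for COL1A2, 36.6 for VWF, 45.9 for CD3E and 81.5 for PTPRC. The dimmest probe measured above background there had 21.2. PECAM1 had 138, DES 385, CD68 3309 and EPCAM 52310. The hepatoma markers ran from 108 (HNF4A) to 244338 (ALB) on that array. Detection was thus not limited to the hepatoma markers, but passing the limit does not show expression at their level.

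Most histone cluster genes were detected in Hep3B. The representative probe was well above background on all 4 arrays for 58 of 68 members (85.3%), against 61.7% of all genes of the array. This held for 5 of 6 H1, 12 of 15 H2A, 16 of 19 H2B, 13 of 13 H3 and 12 of 15 H4 genes. On the mock array 61 members were detected, and 59 on each hairpin array. The 6 members detected on no array were HIST1H1T and HIST1H2BA, which are known from testis, together with HIST1H4G, HIST2H2BA, HIST2H4A and HIST4H4. This applies to the probes under those names, since the detected probe of HIST2H4B also lists the RefSeq gene of HIST2H4A and the detected probe of HIST2H2BF that of HIST2H2BA. The other 4 members were detected on some arrays. HIST1H2AA and HIST1H2AI passed on the mock array alone, HIST1H2BE on every array but shR-749, and HIST3H2A on the shR-749 array alone.

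The comparison took in 61 members, of 25133 genes in all, whose probe passed the background limit on the mock array or else on every hairpin array. Values are log2 differences of a hairpin array from the mock array after each array was scaled to its 75th percentile. From here on, differences are listed in the order of the hairpin numbers, from shR-467 to shR-749, and unscaled signals in the same order with the mock array first. As a group the members were level with the mock with shR-467 and shR-554 and lower with shR-749. Their median difference was 0.04 with shR-467, where all genes tested had a median of 0.03, and -0.04 with shR-554, where all genes also had -0.04. With shR-749 it was -0.37, where all genes had -0.05. On the shR-749 array 59 of the 61 members (96.7%) were below the mock, against 57.1% of all genes. With shR-467 the count was 27 of 61, against 45.7% of all genes, and with shR-554 it was 31 of 61, against 54.8%. Each hairpin was measured on 1 array, so the lower values with shR-749 have no replicate and no test. All 3 comparisons share the mock array.

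**Figure D1:**
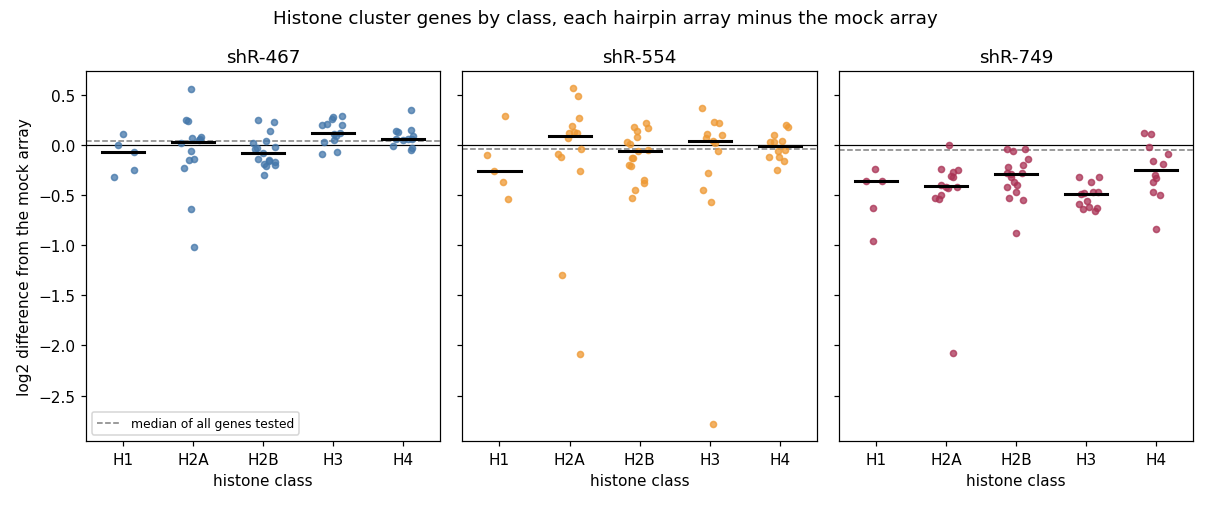
Log2 difference from the mock array (vertical axis) of the 61 histone cluster genes compared, by histone class, with 1 panel a hairpin. Points are genes, black bars class medians, and the dashed line the median of all 25133 genes tested. With shR-749 all points but 2 H4 genes lie below 0, and 1 H3 gene, HIST1H3A, lies at -2.78 with shR-554.

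Over the 3 hairpins the median of the members' mean difference was -0.12, and that of all genes was -0.03. Without shR-749 it was -0.02, so the group value rested on that array. limma, which treats the hairpins as replicates and lets the lone mock array vary like them, called no member at an adjusted p under 0.05 (Benjamini-Hochberg over all genes), and 0% of all genes were called. No member had an unadjusted p under 0.05 either, against 1.52% of all genes. On average over the hairpins 3 of 61 members were at least 1.5-fold lower, against 7.65% of all genes, and none was at least 1.5-fold higher, against 2.28%. The 3 were HIST1H3A, HIST1H2AA and HIST1H2AI, and of these HIST1H3A alone was well above background on all 4 arrays. With every hairpin 1 member was at least 1.5-fold lower, against 1.21% of genes, and none higher, against 0.537%. The mock lay above every hairpin for 21 of 61 members, against 20.5% of all genes, and below every hairpin for 1 member, HIST1H4F, against 17.5%.

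The members past 1.5-fold were also counted for each hairpin. With shR-467 it was 2 lower and none higher, where 6.76% and 7.29% of all genes passed. With shR-554 it was 3 lower and none higher, where 15.9% and 4.41% of all genes passed. With shR-749 it was 10 lower and none higher, where 10.3% and 5.41% of all genes passed. The 2 genes with shR-467, HIST1H2AA and HIST1H2AI, were well above background on the mock array alone, and they were also 2 of the 3 with shR-554. Among the 58 members detected on all 4 arrays, 0, 1 and 8 were lower past 1.5-fold in the same order of hairpins. The shares above cover all genes tested, dim ones among them. No share of the genes detected throughout is given here, so these counts cannot be set against one. Between the spots of the 16 members printed in 2 spots and detected throughout, the SD of the log2 signal had a median of 0.06 and reached 0.50 at most.

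The linker histones had medians of -0.08, -0.27 and -0.37, and all 5 measured were below the mock with shR-749. HIST1H1B (histone H1.5) had signals of 1395, 1020, 1339 and 724. After scaling it was below the mock on all 3 hairpin arrays, at -0.26, -0.37 and -0.96, with a mean of -0.53 ± 0.38 (SD, n = 3). In limma it had the lowest unadjusted p of the members, 0.138, and an adjusted p of 1.00. HIST1H1D (H1.3) was also below the mock on each array, with -0.08, -0.54 and -0.63. HIST1H1E (H1.4) was level with the mock with shR-467 and below it with the others, with 0.00, -0.27 and -0.36. On the shR-554 array its 2 spots differed by an SD of 0.50 in log2 signal. That is more than its difference of -0.27 there, which is also the class median with shR-554. The other linker genes changed sign between hairpins. HIST1H1A (H1.1) had 0.11, -0.11 and -0.37, and HIST1H1C (H1.2) had -0.33, 0.28 and -0.24. The 2 spots of HIST1H1C differed by an SD of 0.44 on the mock array, more than its differences from the mock.

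Class H2A had medians of 0.03, 0.09 and -0.41, and all 14 genes were below the mock with shR-749. The genes of the HIST1 cluster detected throughout ranged from -0.16 to 0.24 with shR-467. With shR-554 HIST1H2AB was above the mock by 0.57 (signals of 674, 621, 1240 and 482), and with shR-749 it was at -0.50. HIST2H2AB and HIST2H2AC, neighbours in the HIST2 cluster of chromosome 1, went the same way. HIST2H2AB had 0.55, 0.48 and -0.42, and HIST2H2AC had 0.25, 0.27 and -0.54. Both were above the mock with the first pair of hairpins and below it with shR-749, while HIST2H2AA4 was below it with each (-0.24, -0.26 and -0.31). HIST1H2AL, at 0.24, -0.09 and 0.00, was the H2A gene nearest to the mock with shR-749. HIST1H2AD (-0.14, -0.04, -0.24), HIST1H2AE (0.01, -0.12, -0.43), HIST1H2AH (0.05, 0.12, -0.25) and HIST1H2AJ (-0.16, 0.06, -0.28) followed the class. So did HIST1H2AK (0.06, 0.19, -0.32) and HIST1H2AM (0.07, 0.12, -0.42). Of the dim genes, HIST1H2AA, known from testis, had a signal of 35.6 on the mock array, from 1 spot, and was not well above background with any hairpin. It was compared only because its mock signal passed, so values below the mock follow in part from that choice and do not show a fall. After scaling, its mock signal was 1.40-fold above a limit set by the hairpin arrays. The limit was the dimmest probe that each hairpin array still measured above background, averaged over the arrays. This ratio leaves out the error of the single mock spot and does not hold for each hairpin alone. HIST1H2AI, at 23.5 on the mock array, was the member counted above as 1.5-fold lower with every hairpin. Its signals of 10.1, 6.89 and 5.61 on the hairpin arrays were not well above background, and the mock signal itself lay below the same limit. This gene too was compared through its mock signal alone.

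Class H2B had medians of -0.08, -0.06 and -0.30, and all 17 genes measured were below the mock with shR-749, from -0.88 to -0.04. On all 3 hairpin arrays 9 of the 17 were below the mock, by small amounts. HIST1H2BI had -0.30, -0.21 and -0.40, HIST1H2BL had -0.21, -0.35 and -0.37, and HIST1H2BM had -0.19, -0.13 and -0.30. HIST1H2BL, with a mean of -0.31 ± 0.09 (SD, n = 3), reached an unadjusted p of 0.152 in limma. HIST1H2BB (-0.04, -0.38, -0.47), HIST1H2BC (-0.16, -0.14, -0.53), HIST1H2BG (-0.17, -0.20, -0.33), HIST1H2BH (-0.15, -0.05, -0.20) and HIST1H2BK (-0.04, -0.46, -0.14) were also below the mock on each array. HIST1H2BE, at -0.08, -0.53 and -0.88, had a signal of 23.2 with shR-749 that was not well above background, so that its lowest value is a measured one below the detection limit. HIST1H2BD (0.25, 0.21, -0.05), HIST1H2BN (0.02, 0.13, -0.04) and HIST3H2BB (0.23, 0.01, -0.06) lay between -0.06 and 0.25 throughout. The remaining genes, HIST1H2BF (-0.02, 0.16, -0.56), HIST1H2BJ (-0.14, 0.07, -0.43), HIST1H2BO (-0.21, 0.03, -0.28), HIST2H2BE (0.14, 0.17, -0.28) and HIST2H2BF (0.04, -0.06, -0.22), had their lowest value with shR-749.

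Class H3 had the lowest median with shR-749, -0.49, with all 13 genes between -0.66 and -0.32, beside medians of 0.11 and 0.04 with the other two hairpins. HIST1H3C had signals of 10900, 11400, 13700 and 7030, and scaled differences of 0.26, 0.02 and -0.65. HIST1H3B (0.05, 0.11, -0.66), HIST1H3D (0.19, 0.23, -0.47), HIST1H3F (0.28, 0.22, -0.38) and HIST1H3G (0.09, 0.04, -0.56) had the same order, above the mock with shR-467 and shR-554 and below it with shR-749. HIST1H3I (0.20, 0.07, -0.48), HIST2H3A (0.10, 0.37, -0.32) and HIST2H3D (0.11, 0.09, -0.32) did too. HIST1H3H (0.20, -0.06, -0.49), HIST1H3J (0.28, -0.57, -0.63) and HIST1H3E (-0.08, -0.28, -0.62) were below the mock with shR-554 as well. HIST3H3 encodes an H3 known from testis, and its probe was well above background on all 4 arrays, with signals of 29598, 26244, 26950 and 21499 and differences of 0.02, -0.45 and -0.47. Over 40 bases this probe was 85.0% identical to that of HIST2H3D, and how much of its signal came from other H3 messages was not tested.

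HIST1H3A was the H3 gene that stood apart. It had signals of 10100, 8260, 1820 and 6780, with the shR-554 array far below the rest. The scaled differences were -0.09, -2.78 and -0.59, so that the shR-554 array held 14.5% of the mock level and the shR-467 array 93.7%. The mean was -1.16 ± 1.43 (SD, n = 3), with an unadjusted p of 0.24 and an adjusted p of 1.00 in limma. The value rests on 1 spot an array, and the spot carried no outlier mark. No other H3 member was below -0.57 with shR-554. Its probe, in the coding part of the gene at chr6:26020881-26020940 (hg19), is shown with the probes of HIST1H3D (chr6:26197258-26197317) and HIST1H3G (chr6:26271410-26271469), which overlap it when aligned and whose genes had 0.23 and 0.04 with shR-554. Capitals mark the bases that differ from HIST1H3A.
HIST1H3A: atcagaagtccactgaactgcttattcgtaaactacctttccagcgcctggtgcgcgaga
HIST1H3D: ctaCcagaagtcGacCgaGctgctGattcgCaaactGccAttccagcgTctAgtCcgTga
HIST1H3G: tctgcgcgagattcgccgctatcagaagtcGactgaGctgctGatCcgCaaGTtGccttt
The probes differ at 12 of 58 shared bases (79.3% identity) and at 8 of 40 (80.0%). With HIST1H3A left out, the median of the remaining 60 members was -0.02 with shR-554 and -0.37 with shR-749.

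Class H4, whose genes nearly all encode one protein, had medians of 0.06, -0.01 and -0.25, the last the nearest to the mock of the class medians with shR-749. HIST1H4C had signals of 150000, 167000, 190000 and 135000, and differences of 0.35, 0.03 and -0.16. HIST1H4E was the lowest with shR-749, at -0.84, after -0.05 with both other hairpins, and its signals were 6960, 5860, 8340 and 3910. HIST1H4F and HIST1H4J were the only members above the mock with shR-749, by 0.12 and 0.11. HIST1H4F had 0.14 and 0.03 with shR-467 and shR-554, and HIST1H4J had 0.06 and -0.16. HIST1H4I (-0.04, -0.06, -0.09) and HIST2H4B (0.12, 0.17, -0.02) were close to the mock on each array. The remaining genes were HIST1H4A (0.15, 0.09, -0.47), HIST1H4B (0.05, -0.13, -0.51), HIST1H4D (0.06, 0.19, -0.37), HIST1H4H (-0.01, -0.25, -0.33), HIST1H4K (0.09, -0.12, -0.20) and HIST1H4L (0.04, 0.04, -0.30). All 6 were lowest with shR-749.

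**Figure D2:**
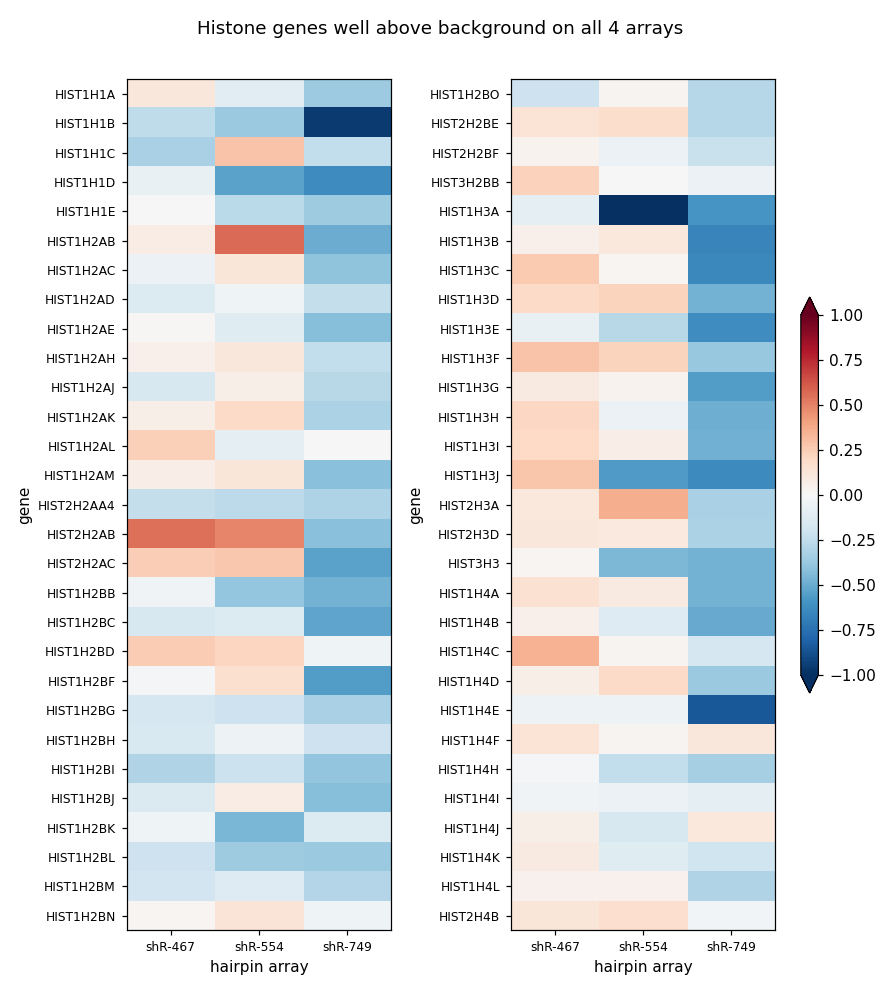
Log2 difference from the mock array (colour, blue lower and red higher, with the scale ending at -1 and 1) of the 58 histone cluster genes well above background on all 4 arrays, with 1 row a gene in the order of classes and 1 column a hairpin. The shR-749 column is blue for all genes but HIST1H4F and HIST1H4J, HIST1H2AL is nearly white there, and HIST1H3A with shR-554 (-2.78) lies beyond the scale.

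Probes of one gene did not always move together, which was seen for HIST1H2AC. Its representative probe covers the start of the coding sequence at chr6:26124461-26124520 on hg19, with the start codon in capitals.
HIST1H2AC: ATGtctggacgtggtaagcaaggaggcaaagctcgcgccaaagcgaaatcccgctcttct
This probe had signals of 467, 391, 629 and 357, and differences of -0.06, 0.12 and -0.40. Another probe annotated to HIST1H2AC lies 14361 bases further downstream, at chr6:26138822-26138881, on a longer Ensembl transcript of the gene. Its signals were 455, 196, 278 and 189, and its differences -1.02, -1.02 and -1.28, so that it was at 49.3%, 49.2% and 41.2% of the mock level. The mock array was above every hairpin array by at least 2-fold at this probe, and the hairpin arrays differed little from each other (mean -1.11 ± 0.15, SD, n = 3). In a limma fit with 1 row a probe its unadjusted p was 0.00454 and its adjusted p 1.00. The downstream probe's difference lay below that of the coding probe on each of the 3 arrays, by a mean of -0.99 ± 0.13 (SD). Each of these probes has 1 spot an array, and all 3 differences share the same mock spots (signals of 455 and 467). The 3 arrays are therefore not independent here, and the SD leaves out the error of the mock. It was 1 of 3 member probes of 71 in that fit at least 1.5-fold lower with every hairpin, against 1.23% of the 30274 probes tested, and the other two were HIST1H2AI and a probe of HIST2H2BF well above background on the mock array alone (signal 33.0). The third HIST1H2AC probe, before the start codon, had 0.35, -0.20 and -0.19.

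Other genes with several detected probes were compared in the same way. The representative probe of HIST1H2BK lies 8246 bases downstream of its other probe and had -0.04, -0.46 and -0.14, where the other had -0.19, -0.26 and -0.43. That other probe also lists transcripts of neighbouring H2B genes. HIST1H3H had a probe over the stem-loop with differences of 0.18, -0.45 and 0.57, where the coding probe had 0.20, -0.06 and -0.49. The stem-loop probe was dim, with signals of 50.9, 50.3, 46.2 and 76.4. Its single spot on the shR-749 array had a pixel SD of 31.3% of its mean. For HIST1H4L the second probe had -0.15, -0.30 and -1.01, against 0.04, 0.04 and -0.30, but its signals of 59.7, 47.0, 60 and 29.9 lay near the detection limit, since the dimmest probes still above background had 21.2 to 28.3 by array. For 6 members the representative probe lists transcripts of more than 1 RefSeq gene, among them HIST2H3A, HIST2H3D and HIST1H4K, so that these copies are not told apart. The probes of 6 members were at least 90% identical to another member's over 40 bases or more.

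**Figure D3:**
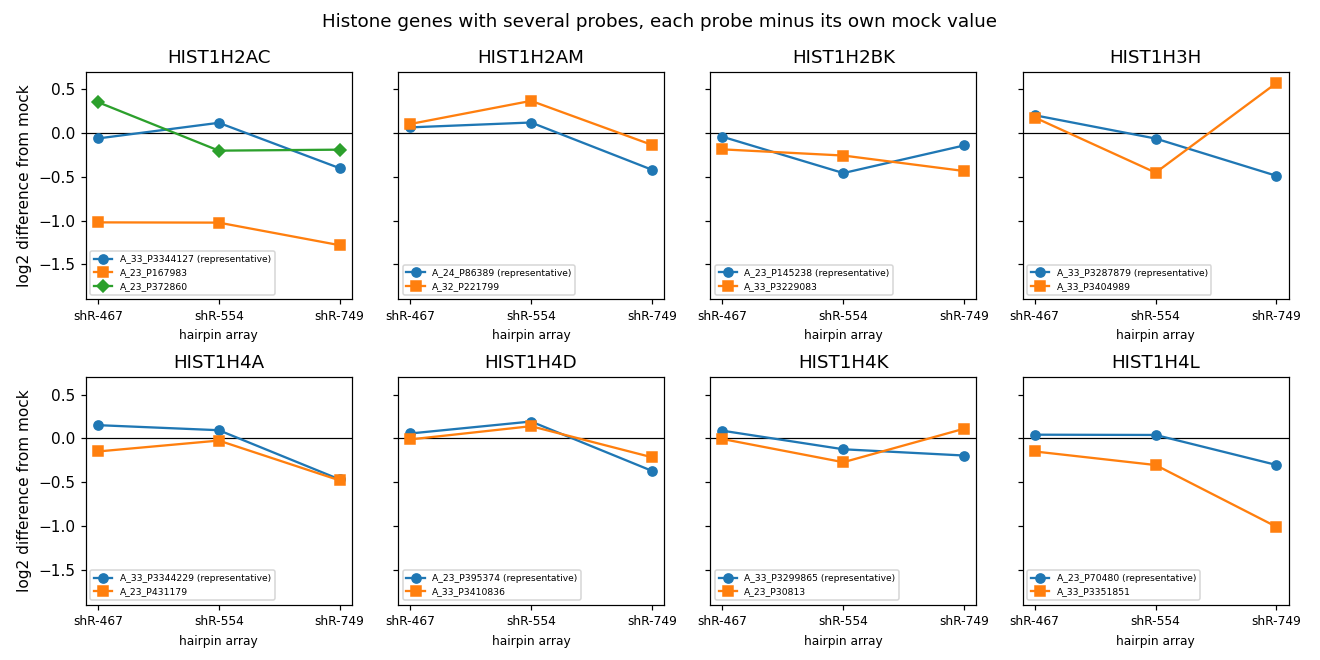
Log2 difference of each probe from its own mock value (vertical axis) on the 3 hairpin arrays, for the 8 histone genes with several probes well above background on all 4 arrays. The downstream probe A_23_P167983 of HIST1H2AC lies at or below -1.02 on each array while its other probes lie between -0.40 and 0.35.

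Variant histones outside the clusters were read beside the members, 12 of 18 listed genes being measured. By median they had 0.01, 0.01 and -0.21, and limma called none at an adjusted p under 0.05 and 1 at an unadjusted p under 0.05. H1F0, the linker histone H1.0 of resting and differentiated cells, had signals of 6932, 3342, 4290 and 3840. All 3 hairpin arrays were below the mock, at -0.86, -1.004 and -0.87 (mean -0.91 ± 0.08, SD, n = 3), with an unadjusted p of 0.00191 and an adjusted p of 1.00. It was the variant at least 1.5-fold lower with every hairpin, and among the cluster H1 genes none reached this. H3F3A, a gene of H3.3, was low with shR-554 alone, with signals of 148000, 130000, 40000 and 115000 and differences of 0.01, -2.20 and -0.38. It and HIST1H3A, both H3 genes read from 1 spot an array, had their low value on the same array. On that array 15.9% of all genes were at least 1.5-fold lower, against 6.76% with shR-467 and 10.3% with shR-749. A link between the 2 genes was not tested. The other H3.3 gene, H3F3B, had 0.00, -0.18 and -0.65, and H2AFV had -0.05, -0.02 and -0.57, both lowest with shR-749 as the cluster genes were. H2AFZ, the histone H2A.Z, had 0.72, 0.69 and -0.05.

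Genes that transcribe and process histone messages had a median nearer the mock than the members with shR-749. Of 33 listed, 31 were measured, and their medians were -0.09, -0.02 and -0.12. limma called none of them, either at an adjusted or at an unadjusted p under 0.05, and none passed 1.5-fold with every hairpin. SLBP, which binds the stem-loop, had signals of 19899, 20849, 24936 and 15550 and differences of 0.26, 0.01 and -0.37, so that it was below the mock with shR-749 alone. NPAT, the S-phase coactivator of histone genes, had -0.08, 0.67 and -0.17. CDK2, the kinase that phosphorylates NPAT, had -0.14, -0.48 and -1.17 (mean -0.60 ± 0.52, SD, n = 3), and was the list's only gene past 1.5-fold on average. ERI1, the exonuclease that trims histone messages, was above the mock on each array, with 0.41, 0.35 and 0.58.

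Histone chaperones and S-phase genes gave medians of -0.15 and -0.12 with shR-749. All 21 chaperones and 25 of 26 S-phase genes were measured, and limma called none of either list at an adjusted p under 0.05 and 1 of each at an unadjusted p under 0.05. The chaperone was NAP1L1, which carries H2A and H2B, with 0.57, 0.89 and 0.86, and the S-phase gene was RRM2, a subunit of ribonucleotide reductase, with -0.44, -0.84 and -0.65. PCNA, the sliding clamp of replication, had 0.67, 0.29 and 0.28. The 12 hepatoma markers had medians of 0.60, 0.19 and 0.26, an order the histone genes did not share, and their part in the histone values was not tested. The middle range of the S-phase genes with shR-749 ran from -0.42 to 0.01 between its quartiles, and that of the cluster genes from -0.51 to -0.25. Whether a share of cells in S phase moved with the histone values was not tested, and fewer cells in S phase and less histone RNA per cell cannot be told apart on these arrays.

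**Figure D4:**
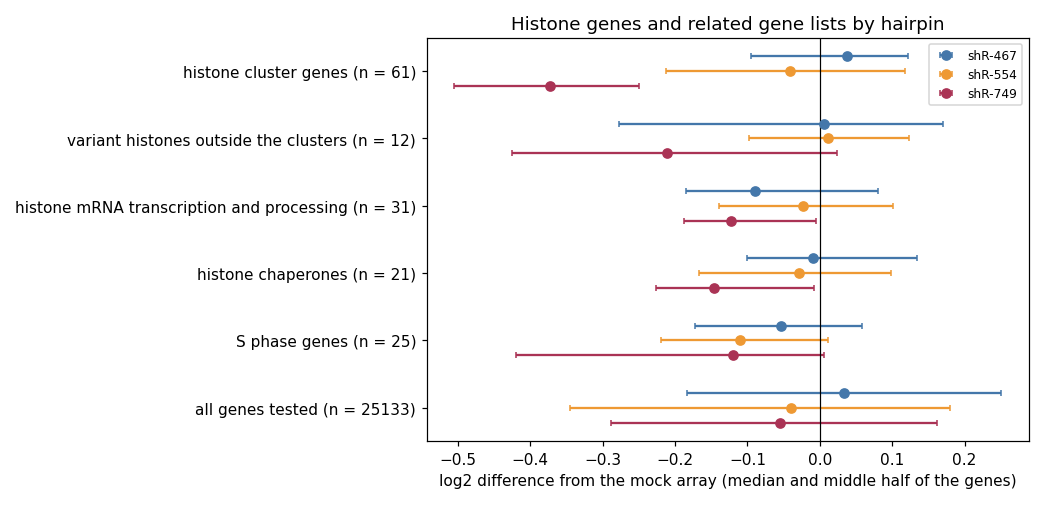
Median log2 difference from the mock array (horizontal axis, points) with the range between quartiles (bars) for the histone cluster genes, 4 related gene lists and all genes tested, with 1 colour a hairpin. The histone cluster genes with shR-749 have a median of -0.37 and lie furthest to the left.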

How the data were processed

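Each of the 4 samples was hybridised to 1 Agilent array, and all 4 arrays shared 1 slide and 1 scan. The authors deposited the intensity of each spot as given by Agilent Feature Extraction 10.7.1.1 (per the submitters' processing notes), with the background subtracted, and a table of processed log2 values whose normalization is not given in the sources used here. Here the log2 of the processed signal was scaled by each array's 75th percentile over non-control spots, spots with an outlier mark were dropped, and repeated spots were averaged. A gene was tested if its probe passed the background limit for the mock array or for every hairpin array. limma 3.58.1 (lmFit, eBayes with trend, Benjamini-Hochberg) compared 3 hairpins with 1 mock, with 2 residual and 4.97 prior degrees of freedom. Nothing in the labels says that the cultures were independent. The p-values rest on the spread between the 3 hairpin arrays and on a prior pooled over genes, and the lone mock array adds no spread. The number of arrays limits the precision. Simulated data for a check of the fit took each gene's spread from its 3 hairpin arrays, so the outcome need not hold for the real data. The fit was tested on simulated data of 25133 genes, 200 of them changed 4-fold, of which 198 passed 1.5-fold on average and limma called 0 at an adjusted p under 0.05.

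The members and lists were chosen with earlier results of these data known. Values were given for every member well above background on all 4 arrays, for the 3 partly detected members brightest on the mock array, for UNC50, for variant or processing genes past 1.5-fold with every hairpin, and for the 3 variant histones brightest on the mock array. SLBP, NPAT, CDK2, ERI1, H2AFZ, NAP1L1, RRM2, PCNA and single probes were named after their values were seen. All 68 names matched RefSeq (66 by accession, 2 by synonym). Alternatives were other scalings and filters, the authors' values, other thresholds and tests, and leaving out single hairpins. With 1 slide and 1 scan no block for them could be fitted.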

Additional observations from a re-analysis of the deposited data

Results flagged for a closer look

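A second probe of HIST2H2BF, A_33_P3229239 at chr1:149398604-149398663 (hg19), was not used in the comparisons and gave a signal of 228 on the shR-554 array. It was well above background there and on no other array, with signals of 4.50 on the mock array, 5.41 with shR-467 and 5.65 with shR-749. It rests on 1 array, and the representative probe of the gene had a difference of -0.06 from the mock on that array.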

How the results depend on the processing

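Of 786 values recomputed under alternatives, 771 stayed the same within the spread over the 3 hairpins or within 1.5 times for counts, and 0 reversed. Values of single genes made up 696 of the 786. For a gene with a wide spread, such as HIST1H3A (mean -1.16, SD 1.43), a large shift can still count as the same. The median of the members with shR-749 stayed between -0.37 and -0.31 under the 12 settings that include that array, the reported one among them. From 89.7% to 96.7% of the members measured were below the mock. The reported setting lay at the end of both ranges furthest from the mock, at -0.37 and 96.7%. With shR-467 the median ran from -0.01 to 0.05 and with shR-554 from -0.06 to 0.01. The count of members past 1.5-fold on average (3) became 1 with normexp and quantile normalization, with dim signals floored at the dimmest one measured above background, and with only probes detected on all 4 arrays, HIST1H3A alone being left in the last. Under the same 3 settings the count with every hairpin (1) became 0, and with 1 row a probe, chosen after seeing the data, it became 3. With shR-554 and shR-749 only, 6 members passed on average, all lower. The share of all genes for this pair is not given here. Taken singly, shR-554 had 15.9% and shR-749 had 10.3% of all genes at least 1.5-fold lower. With each hairpin left out in turn, the count on average ran from 3 to 6, and the count with every hairpin from 1 to 2. The median of the mean differences ran from -0.18 to -0.02 and was -0.02 without shR-749. The methods' t-test called 1 member before adjustment and 0 after it, and 646 and 0 genes in all. limma called 0 members under every alternative run. The mean over a gene's probes moved HIST1H2AC to -0.41, HIST1H4L to -0.28 and HIST2H2BF to 0.08. Signal over background limits the dim members, and 62 in place of 58 were detected on all 4 arrays by the software's other detection mark. No paired analysis was possible because the mock has 1 array and shares fewer than 2 replicate numbers with the knockdown. The block for slide or scan was not run, with 1 slide and 1 scan.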
